A study of Mus musculus with 5 samples.

Results

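Type I interferon stimulated genes are the genes that cells switch on when interferon alpha or beta binds at the surface. The 32 genes described here were chosen by name from a list of such genes, and all 32 were found among the 54532 genes of the deposited read count table. All 32 also passed the filter on low counts, which kept 17906 genes in all. RNA-seq was done on 5 lung tumours of a genetically engineered mouse model of small cell lung cancer, a neuroendocrine lung cancer, harvested at necropsy. All 5 carry the genotype that the labels call RPP, whose letters the labels do not expand. The vehicle group had 2 tumours and the LSN group had 3, LSN being the label for the treatment, which by the series title blocks Aurora A, a kinase that cells need to build the spindle in mitosis. The sources used here do not give mouse age, LSN dose or its duration. They do not say either whether each tumour came from a separate mouse, so p-values measure only the spread between these samples. The design text speaks of tumour cells whereas the labels speak of lung tumour pieces. The series title concerns interferon signalling under Aurora A inhibition, and the comparison of LSN with vehicle bears on it. Gene positions are those of the deposited table, on mm10.

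Interferon alpha and beta share a receptor made of the products of Ifnar1 and Ifnar2, which signals through the kinases JAK1 and TYK2. These phosphorylate STAT2, which joins IRF9 in the factor ISGF3. ISGF3 enters the nucleus and binds a short motif, the interferon-stimulated response element, upstream of the genes it induces. The induced proteins include sensors and binders of foreign RNA, enzymes that modify host and viral proteins, inhibitors of viral replication, and parts of the signalling chain itself, among them Stat2 and Irf9.

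Sequences with this motif are printed for 8 members, because it is the element through which the group is known to be controlled together. A RefSeq window around the start site (build GRCm38.p6, 250 bases before to 50 after) was at hand for 23 of the 32 genes, 26 windows in all. The core searched was GAAA, any 2 bases, then GAAA again, which reads TTTC, any 2 bases, TTTC where the motif lies on the other strand. It was found in 12 of these 26 windows, belonging to 11 genes. Over all 32851 windows 3.44% held it. Both strands were searched, matches could overlap, capitals mark the matches, and sequences read 5′ to 3′ on the strand of the gene. In Isg15 the first base of the run lay 78 bases before the start site, and 3 matches overlapped in it. Ifit1 had 2 matches, the first of them 104 bases before the start site.
Isg15, chr4:156200865-156200906, minus strand: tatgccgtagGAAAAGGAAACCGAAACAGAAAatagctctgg
Bst2, chr8:71537577-71537612, minus strand: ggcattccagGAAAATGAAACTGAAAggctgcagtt
Ifit1, chr19:34640775-34640823, plus strand: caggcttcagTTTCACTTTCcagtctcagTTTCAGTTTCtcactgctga
Ifit3, chr19:34583397-34583426, plus strand: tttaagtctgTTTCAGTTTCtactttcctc
Ifit3b, chr19:34607793-34607822, plus strand: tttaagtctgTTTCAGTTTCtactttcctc
Oas3, chr5:120777715-120777744, minus strand: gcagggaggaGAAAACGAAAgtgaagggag
Rsad2, chr12:26456553-26456582, minus strand: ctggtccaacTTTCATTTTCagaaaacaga
Stat2, chr10:128270266-128270295, plus strand: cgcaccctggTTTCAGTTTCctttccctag
The other 3 genes with a match were Eif2ak2, Oas1a and Trim30a. A match is a string of letters in this window and not a measured binding site. Of the 11 genes with a match 6 had their highest value in LSN replicate 2, and of the 12 with a window and no match 8 did. A second element, GAS, with the letters TTCNNNGAA that read the same on both strands, is known from interferon gamma signalling. It was found in 5 of the 23 genes, and in 9.55% of all genes with a window.

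The highest levels of these genes were mostly found in a single tumour of the LSN group. LSN replicate 2 held the highest value for 23 of the 32 genes (71.9%), and it was the highest tumour for 24.8% of all genes tested. LSN replicate 3, with the same treatment label, held the lowest value for 16 of the 32 (50%), against 20.4% of all genes. For 12 genes both were true at once, against 5.66% of all genes. In 18 of the 32 (56.3%) LSN replicate 2 was at least 2-fold above the median of the other 4 tumours, against 9.71% of all genes. The summed level of the 32 genes was 755 and 873 CPM in vehicle replicates 1 and 2 and 811, 1610 and 796 CPM in LSN replicates 1, 2 and 3. CPM are read counts scaled to the size of each library, here after TMM normalization. By this sum LSN replicate 2 was alone at a high level, and the other LSN tumours lay between the vehicle tumours. Abundant genes weigh most in such a sum. The mean of log2(CPM + 1) over the 32 genes was 3.96 and 4.37 in vehicle replicates 1 and 2. It was 4.20, 5.18 and 3.77 in LSN replicates 1, 2 and 3, so LSN replicate 3 was lowest on that scale.

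**Figure D1:**
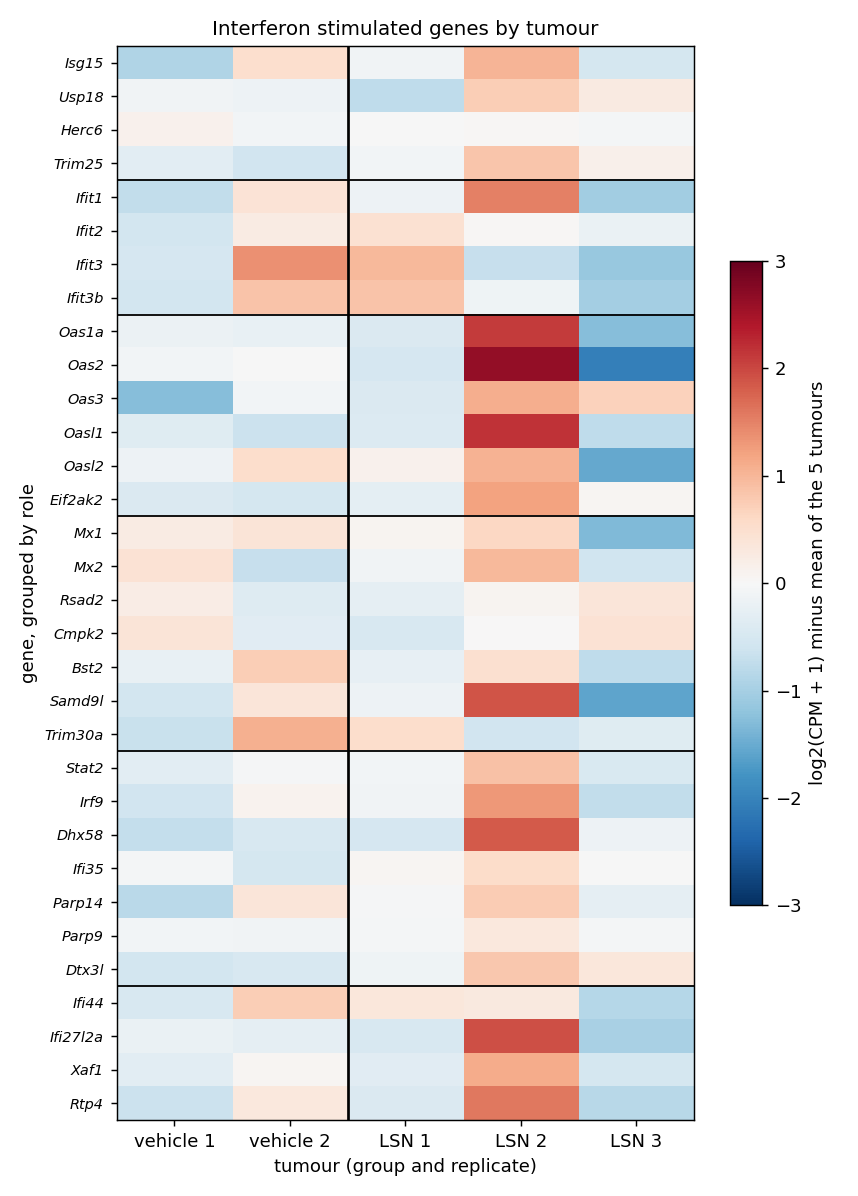
Each row is 1 of the 32 genes, grouped by role between the black lines, and each column is a tumour; colour gives log2(CPM + 1) minus the mean of the 5 tumours. The column of LSN replicate 2 is red for most genes, whereas Ifit3, Ifit3b and Trim30a are red in vehicle replicate 2 and LSN replicate 1.

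**Figure D2:**
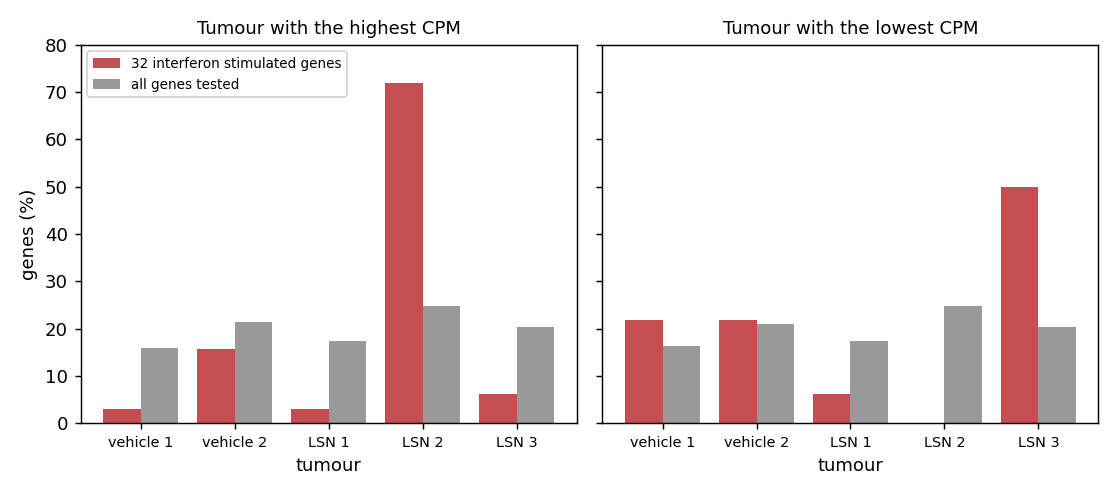
Bars give the percentage of genes whose highest (left) or lowest (right) CPM was in each tumour, for the 32 interferon stimulated genes (red) and for all 17906 genes tested (grey). LSN replicate 2 is the highest tumour for 71.9% of the 32 genes and the lowest for 0 of them.

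By edgeR's quasi-likelihood test, 0 of the 32 genes differed between LSN and vehicle at an adjusted p of 0.05, and 0% of all 17906 genes did. Every member had an adjusted p of 0.9996. At an unadjusted p under 0.05 there was 1 gene of the 32, Dtx3l, and it was higher with LSN. Over all genes 4.27% reached that level, 1.06% higher and 3.21% lower with LSN. DESeq2 also called 0 of the 32, its smallest adjusted p being 0.700, with 1 gene at an unadjusted p under 0.05 (4.02% of all genes), and it called 0.539% of all genes with an adjusted p. With limma-voom 0 of the 32 were called and 0 reached an unadjusted p under 0.05 (4.79% of all genes). Log2 fold changes were above 0 for 23 of the 32 genes (71.9%, against 53.2% of all genes), with a median of 0.38 against 0.03 over all genes. Without LSN replicate 2 the median was -0.17, and 9 of the 32 were above 0.

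In 5 genes all LSN tumours lay above both vehicle tumours: Trim25, Eif2ak2, Ifi35, Parp9 and Dtx3l. They are 15.6% of the 32, and 8.48% of all genes separated in this way. In 0 of the 32 did all LSN tumours lie below both vehicle tumours, against 10.4% of all genes. With LSN replicate 2 left out, 5 of the 32 separated upward, against 14.5% of all genes, and 6 separated downward. The share of all genes separating downward was not computed in that setting. Scaled to total counts without TMM, 3 of the 32 separated upward, against 5.62% of all genes. Parp9 and Ifi35 then overlapped between the groups.

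**Figure D3:**
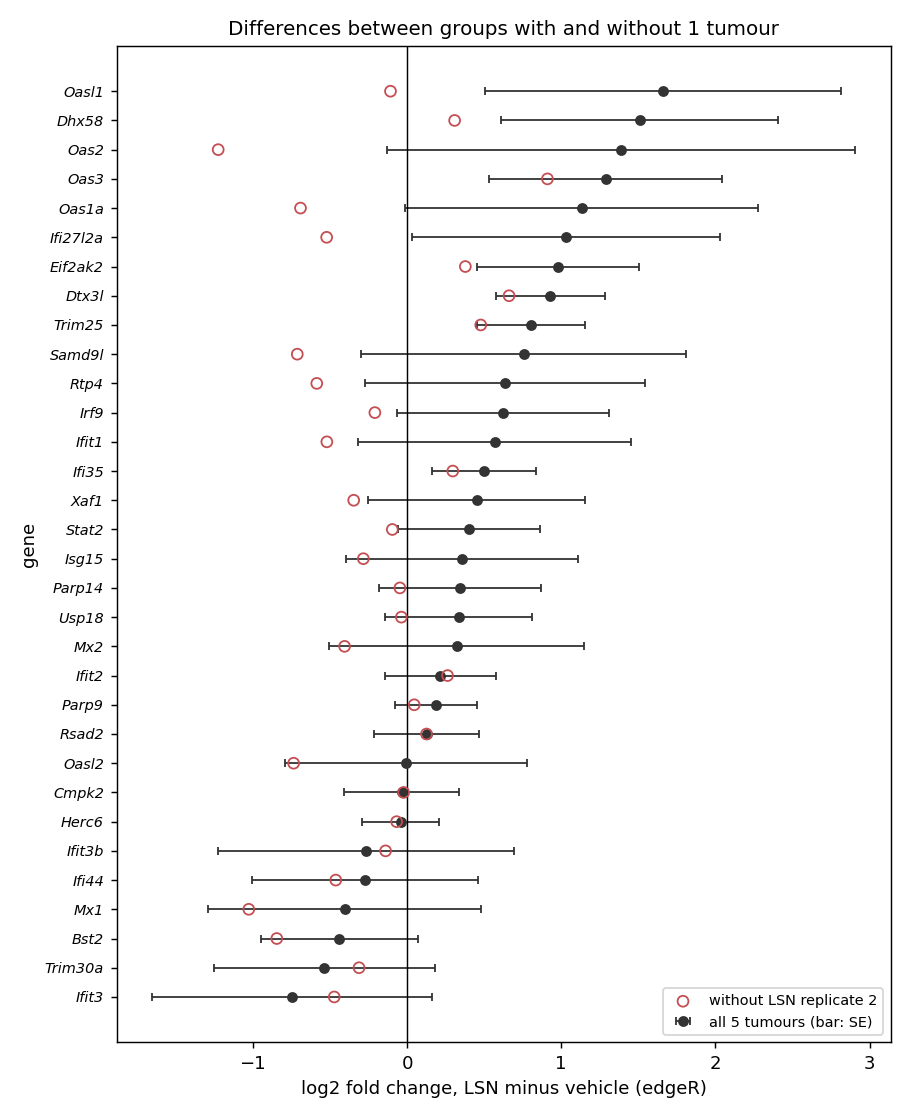
Filled points give the log2 fold change of each gene, LSN minus vehicle, from edgeR over all 5 tumours with its standard error (SE), and open red circles the same without LSN replicate 2. Oas2 moves from 1.39 to -1.22 and Samd9l from 0.76 to -0.71, while Dtx3l goes from 0.93 to 0.66.

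The OAS family and the kinase PKR act on double-stranded RNA, and this role had the widest spread. OAS enzymes make short oligoadenylates that activate an RNA-cutting nuclease, and PKR, encoded by Eif2ak2, halts translation. Their summed level was 69.1 and 82.5 CPM in the vehicle tumours and 74.4, 282 and 64.5 CPM in LSN replicates 1, 2 and 3. All 6 genes were highest in LSN replicate 2 and 4 were lowest in LSN replicate 3.

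Oas2 (ENSMUSG00000032690, chr5:120730333-120749853) was at 8.17 and 8.597 CPM in vehicle replicates 1 and 2 and at 5.85, 58.8 and 1.32 CPM in LSN replicates 1, 2 and 3. The vehicle tumours were nearly equal, whereas 2 LSN tumours differed 44.4-fold, the widest range among the 32 genes. Oas1a was at 9.47 and 9.16 CPM with vehicle and at 7.68, 49.7 and 3.87 CPM with LSN, the same order of tumours within the LSN group. About 32.4% of the 150-base windows of its transcripts also occur in Oas1g, so its reads may be shared with that copy. Oasl1, an OAS-like protein that restrains IRF7, was at 4.36 and 3.41 CPM with vehicle and at 4.14, 29.6 and 3.07 CPM with LSN. Its log2 fold change, 1.66 ± 1.16 (SE), was the largest of the 32, and it was -0.11 without LSN replicate 2.

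Oas3, which makes the oligoadenylates most readily with long RNA, had a different order. Its 5 values were 2.64 and 7.31 CPM with vehicle and 5.47, 17.7 and 13.2 CPM with LSN, so LSN replicate 3 was also high. The log2 fold change was 1.29 ± 0.76 (SE; edgeR, unadjusted p = 0.145, adjusted p = 0.9996). Eif2ak2 (chr17:78852564-78882573) was at 26.0 and 24.2 CPM with vehicle and at 28.7, 83.1 and 36.6 CPM with LSN, with no overlap of the groups. The change of Eif2ak2 was 0.98 ± 0.53 on the log2 scale (SE; edgeR, unadjusted p = 0.117) and 0.38 without LSN replicate 2. Oasl2 showed almost no difference in mean, at 18.4 and 29.9 CPM with vehicle and 22.6, 43.0 and 6.41 CPM with LSN. Its log2 fold change was -0.01 ± 0.78 (SE; edgeR, unadjusted p = 0.993), and 0.01 with DESeq2. For the role as a whole the median log2 fold change was 1.21 with all tumours and -0.40 without LSN replicate 2, when 2 of 6 were above 0. With limma-voom it was 0.56.

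**Figure D4:**
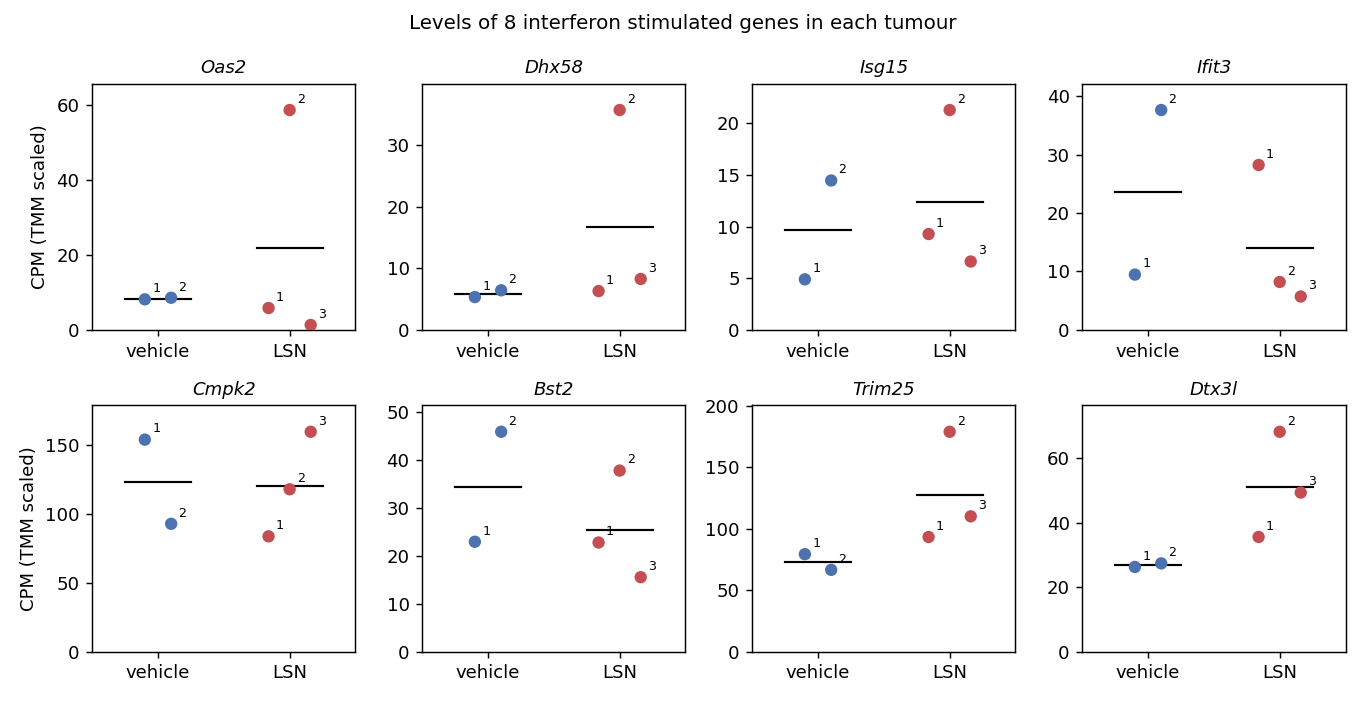
Points give the CPM of 8 genes in each tumour, blue for vehicle and red for LSN, numbered by replicate; the black line is the group mean and every axis starts at 0. Oas2, Dhx58 and Isg15 have LSN replicate 2 on top, Ifit3 has vehicle replicate 2 and LSN replicate 1, Cmpk2 has LSN replicate 3 and vehicle replicate 1, and Trim25 and Dtx3l have no overlap of the groups.

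Genes of signalling and transcription were above 0 in 7 of 7 cases, with a median log2 fold change of 0.50, and LSN replicate 2 was the highest tumour for all 7. Without that tumour 4 of 7 were above 0 and the median was 0.05. Stat2 (chr10:128270559-128292849) was at 49.96 and 61.1 CPM with vehicle and at 59.1, 115.8 and 44.9 CPM with LSN. Irf9, its partner in ISGF3, was at 23.4 and 38.4 CPM with vehicle and at 32.8, 89.0 and 20.6 CPM with LSN. Both put LSN replicate 2 at the top and LSN replicate 3 at the bottom, with the other tumours in between. Over the 761 genes of chromosome 10 with a mean of at least 1 CPM, Stat2 being on that chromosome, the median deviation of log2 CPM from the gene's mean was 0.36 in LSN replicate 2 and -0.20 in LSN replicate 3, and its part in the levels of Stat2 was not tested. Stat2 had a log2 fold change of 0.40 ± 0.46 (SE; edgeR, unadjusted p = 0.421), and -0.10 without LSN replicate 2. For Irf9 it was 0.62 ± 0.69 (SE), and -0.21 without that tumour.

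Dhx58 encodes LGP2, a helicase that modulates the sensing of viral RNA. It was at 5.32 and 6.42 CPM with vehicle and at 6.30, 35.6 and 8.26 CPM with LSN. In LSN replicate 2 it stood 5.61-fold above the median of the other tumours, and the log2 fold change of 1.51 ± 0.90 (SE; edgeR, unadjusted p = 0.149) was 0.31 without that tumour.

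Dtx3l, a ubiquitin ligase, and Parp9, its partner of the ADP-ribosyltransferase family, are neighbours on chromosome 16. Dtx3l (chr16:35926511-35939151) was at 26.3 and 27.4 CPM with vehicle and at 35.6, 68.3 and 49.4 CPM with LSN. The vehicle tumours were close together and every LSN tumour was above them, for a log2 fold change of 0.93 ± 0.35 (SE; edgeR, unadjusted p = 0.0427, adjusted p = 0.9996). That change ranged from 0.66 to 1.13 when single tumours were left out. Parp9 was at 33.2 and 32.7 CPM with vehicle and at 33.9, 44.5 and 34.2 CPM with LSN, where the lowest LSN tumour was just above the highest vehicle tumour (log2 fold change 0.19 ± 0.27, SE; edgeR, unadjusted p = 0.507). The genes overlap by 682 bases on opposite strands, and since the library did not keep the strand, reads from that stretch cannot be told apart. Parp14, another ADP-ribosyltransferase nearby, overlapped between groups, at 15.1 and 35.1 CPM with vehicle and 26.4, 46.7 and 22.2 CPM with LSN.

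Ifi35, a leucine zipper protein, was at 27.0 and 19.1 CPM with vehicle and at 29.2, 41.2 and 27.5 CPM with LSN. Its lowest LSN value was just above its highest vehicle value, with a log2 fold change of 0.50 ± 0.34 (SE; edgeR, unadjusted p = 0.195). Ifi35 lies on chromosome 11, as do Trim25, Dhx58 and Xaf1. On that chromosome 25.8% of the 1422 genes tested were higher in every LSN tumour and the median log2 fold change was 0.34, while the 4 members there had a median of 0.65. With these 4 left out, the median of the other members was 0.34. The part of the chromosome in the values of these genes was not tested.

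The ISG15 system attaches a ubiquitin-like protein to other proteins. Isg15, the modifier itself (chr4:156199424-156200818), was at 4.89 and 14.5 CPM with vehicle and at 9.28, 21.3 and 6.62 CPM with LSN. The vehicle tumours alone differed about as much as the LSN tumours did, and the log2 fold change was 0.36 ± 0.75 (SE). Usp18, the protease that removes ISG15 and dampens receptor signalling, was at 32.7 and 31.7 CPM with vehicle and at 20.4, 59.0 and 42.4 CPM with LSN. LSN tumours lay on either side of the vehicle tumours, for a log2 fold change of 0.33 ± 0.48 (SE; edgeR, unadjusted p = 0.513), and -0.04 without LSN replicate 2.

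Herc6, the main ISG15 ligase of the mouse, was nearly flat, between 29.9 and 34.7 CPM in all 5 tumours. Its highest value was only 1.16 times its lowest, against a median of 3.99 times over the 32 genes and 2.40 times over all genes. Trim25 (chr11:88999376-89020293), a ubiquitin ligase that activates the RNA sensor RIG-I, was at 79.2 and 66.5 CPM with vehicle and at 93.2, 178.7 and 110.0 CPM with LSN. All LSN tumours were above both vehicle tumours, for a log2 fold change of 0.80 ± 0.35 (SE; edgeR, unadjusted p = 0.0647, adjusted p = 0.9996) and 0.48 without LSN replicate 2.

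The IFIT proteins bind foreign RNA, and their genes stand in a row on chromosome 19 without behaving alike. Ifit1 was at 10.4 and 24.3 CPM with vehicle and at 16.1, 52.9 and 8.10 CPM with LSN, highest in LSN replicate 2 like most members (log2 fold change 0.57 ± 0.89, SE; edgeR, unadjusted p = 0.548, and -0.52 without that tumour). Ifit3 (chr19:34583531-34588731) was at 9.47 and 37.6 CPM with vehicle and at 28.2, 8.20 and 5.72 CPM with LSN. Here vehicle replicate 2 and LSN replicate 1 were high, and LSN replicate 2 was below the median of the other tumours. The log2 fold change of Ifit3 was -0.75 ± 0.91 (SE; edgeR, unadjusted p = 0.447) and 0.57 without vehicle replicate 2.

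Ifit3b followed Ifit3, at 2.04 and 7.15 CPM with vehicle and at 7.12, 3.11 and 1.22 CPM with LSN. It is a near copy of Ifit3, and 16% of its 150-base transcript windows occur in Ifit3, so some reads may be shared. The stretches before their start sites are also alike, and they are printed to show how closely. Compared without gaps at a shift of 32 bases, 86.2% of 218 bases were identical, and each holds 2 matches to the motif, in capitals.
Ifit3, chr19:34583279-34583528, plus strand: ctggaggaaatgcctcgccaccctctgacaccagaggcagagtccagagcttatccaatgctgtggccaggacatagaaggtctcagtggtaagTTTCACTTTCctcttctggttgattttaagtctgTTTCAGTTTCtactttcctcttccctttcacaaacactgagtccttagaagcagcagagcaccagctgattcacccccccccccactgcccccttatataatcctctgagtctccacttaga
Ifit3b, chr19:34607707-34607956, plus strand: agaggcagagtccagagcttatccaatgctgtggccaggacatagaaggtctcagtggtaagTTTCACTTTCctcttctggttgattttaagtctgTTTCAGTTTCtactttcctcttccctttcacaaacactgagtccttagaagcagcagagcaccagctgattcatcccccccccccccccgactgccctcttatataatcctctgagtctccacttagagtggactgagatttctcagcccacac
Ifit2 was at 42.6 and 74.7 CPM with vehicle and at 86.0, 63.8 and 54.7 CPM with LSN, with LSN replicate 1 on top and a log2 fold change of 0.22 ± 0.36 (SE; edgeR, unadjusted p = 0.57). The 4 IFIT genes had log2 fold changes from -0.75 to 0.57, of which 2 were above 0. Without vehicle replicate 2 all 4 were above 0, with a median of 0.79.

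Proteins that act on viral particles or replication were split, with 3 of 7 above 0, and 1 of 7 without LSN replicate 2. Samd9l, a restriction factor, followed the main pattern, at 21.2 and 40.9 CPM with vehicle and at 28.2, 119.5 and 9.79 CPM with LSN (log2 fold change 0.76 ± 1.05, SE; edgeR, unadjusted p = 0.502). Bst2, or tetherin, which holds budding virus at the cell surface, was at 23.0 and 45.9 CPM with vehicle and at 22.8, 37.8 and 15.6 CPM with LSN. Its log2 fold change was -0.44 ± 0.51 (SE; edgeR, unadjusted p = 0.424), with groups that overlapped.

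Trim30a, a TRIM family protein of mouse, was at 5.97 and 21.9 CPM with vehicle and at 14.9, 6.38 and 7.57 CPM with LSN. Like Ifit3 and Ifit3b it was highest in vehicle replicate 2 and next in LSN replicate 1, and its log2 fold change was -0.54 ± 0.72 (SE; edgeR, unadjusted p = 0.485). Mx1 and Mx2, dynamin-like GTPases, were low, at 4.36 and 4.91 CPM with vehicle and 3.76, 5.95 and 0.794 CPM with LSN for Mx1. Mx2, which the deposited table lists as a polymorphic pseudogene, was at 6.18 and 2.29 CPM with vehicle and at 3.92, 9.49 and 2.49 CPM with LSN.

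Rsad2, which encodes viperin, and Cmpk2, a mitochondrial nucleotide kinase, lie 12751 bases apart on chromosome 12 and had the same 3 tumours on top. Rsad2 was at 42.5 and 27.2 CPM with vehicle and at 29.8, 38.1 and 46.5 CPM with LSN. Cmpk2 (chr12:26469204-26479837) was at 154.0 and 92.9 CPM with vehicle and at 83.8, 118.0 and 159.7 CPM with LSN. Both were highest in LSN replicate 3 and next in vehicle replicate 1, and LSN replicate 2 was near the median of the others. The log2 fold change of Cmpk2 was -0.04 ± 0.37 (SE; edgeR, unadjusted p = 0.928) and that of Rsad2 0.13 ± 0.34 (SE).

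Chromosome 12 as a whole differed between these tumours. The median deviation of log2 CPM from the gene's mean, over its 605 genes with a mean of at least 1 CPM, was -0.65 in LSN replicate 2 and 0.56 in LSN replicate 3, while the remaining 3 tumours were at 0.00 to 0.07. Its part in the levels of Rsad2 and Cmpk2 was not tested. The third member on this chromosome, Ifi27l2a, a small membrane protein, did not have those tumours on top in that order, at 14.1 and 13.6 CPM with vehicle and 11.4, 65.7 and 7.89 CPM with LSN (log2 fold change 1.03 ± 0.999, SE; edgeR, unadjusted p = 0.345).

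Among the other induced genes, Rtp4, a chaperone of membrane receptors, was at 7.69 and 16.1 CPM with vehicle and at 9.17, 39.6 and 6.67 CPM with LSN (log2 fold change 0.64 ± 0.91, SE; edgeR, unadjusted p = 0.514). Xaf1, which antagonises an inhibitor of apoptosis, was at 6.72 and 9.10 CPM with vehicle and at 6.68, 20.04 and 5.77 CPM with LSN. Ifi44 was at 3.55 and 9.55 CPM with vehicle and at 7.01, 6.75 and 2.49 CPM with LSN. All 4 genes of this role, Ifi27l2a included, were lowest in LSN replicate 3, and 0 of 4 were above 0 without LSN replicate 2.

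To compare genes with each other, the mean CPM over the 5 tumours was divided by the gene length in kilobases given in the deposited table. On this scale Ifi27l2a came first, at 48.7 CPM per kilobase, followed by Bst2 at 32.1 and Cmpk2 at 29.2. Without LSN replicate 2 the order was Bst2 at 29.7, Cmpk2 at 29.5 and Ifi27l2a at 25.4 CPM per kilobase. Over all 5 tumours the lowest were Ifi44 at 0.958, Mx1 at 1.04 and Oas3 at 1.31 CPM per kilobase. The top 3 each had their highest CPM in another tumour, LSN replicate 2 for Ifi27l2a, vehicle replicate 2 for Bst2 and LSN replicate 3 for Cmpk2.

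With LSN replicate 2 left aside, the spread of the 32 genes was close to that of all genes. The highest of the 4 other tumours was a median of 2.20 times the lowest, against 2.07 times over all genes. Vehicle replicate 2 was then the highest tumour for 16 of the 32 genes, LSN replicate 3 for 9, vehicle replicate 1 for 5 and LSN replicate 1 for 2, where each was highest for 22.6 to 27.1% of all genes. Between the vehicle tumours alone, replicate 2 exceeded replicate 1 for 20 of the 32 genes (62.5%, against 50.1% of all genes).

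The interferons themselves were hardly detected. Of 19 genes for type I and type III interferons, 17 had 0 counts in all 5 tumours, Ifnb1 among them, and Ifna13 and Ifnk had 1 count in 1 tumour each. A count of 0 allows up to 3 counts, for counting error only, so low transcription was not detectable at this depth. Of the 9 receptor and kinase genes, 7 were above 0, against 53.2% of all genes. In edgeR 0 of the 9 reached an unadjusted p under 0.05 and 0 were called. Ifnar1 was between 54.9 and 71.5 CPM in all tumours and Ifnar2 between 10.3 and 23.2 CPM, the latter highest in LSN replicate 2. Jak1 was at 99.8 and 127.7 CPM with vehicle and at 147.3, 179.2 and 43.9 CPM with LSN. Like many members it was highest in LSN replicate 2 and lowest in LSN replicate 3. Jak2, at 70.2 to 116.5 CPM, and Tyk2, at 24.96 to 47.7 CPM, were highest in LSN replicate 3. Il10rb, a receptor chain used by type III interferons, was at 30.9 and 29.0 CPM with vehicle and at 17.2, 66.2 and 34.3 CPM with LSN.

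Transcription factors outside the 32 were above 0 in 5 of 7 cases, against 53.2% of all genes. Irf7, which drives interferon alpha transcription, was at 11.1 and 21.6 CPM with vehicle and at 28.2, 69.3 and 13.0 CPM with LSN. Irf1 was the 1 factor higher in every LSN tumour, its lowest LSN value, 50.7 CPM, being close to its highest vehicle value, 50.2 CPM. Irf1 lies on chromosome 11, where 25.8% of the genes tested were higher in every LSN tumour. The part of the chromosome in its values was not tested. Irf2, which competes with Irf1 for the same sites, was between 26.6 and 73.8 CPM, highest in LSN replicate 2. Of all genes 8.48% separated upward in this way and 10.4% downward. Of 6 negative regulators, only Socs1, a feedback inhibitor of JAK kinases, was lower in every LSN tumour. It was at 3.55 and 4.24 CPM with vehicle and 2.82, 1.39 and 3.49 CPM with LSN (edgeR, unadjusted p = 0.379). Vehicle replicate 1 and LSN replicate 3 both had 66 counts of Socs1, so this separation rests on the scaling. Ptpn6, a phosphatase, was at 33.99 and 31.8 CPM with vehicle and at 22.1, 67.4 and 62.5 CPM with LSN. Ptpn11, a related phosphatase, and Pias1, an inhibitor of STAT signalling, were at 152.9 to 236.5 and 74.0 to 105.1 CPM, with groups that overlapped.

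A further list of 47 interferon induced genes had 45 tested, of which 32 were above 0, against 53.2% of all genes. The median log2 fold change was 0.16, against 0.03 over all genes. LSN replicate 2 was the highest tumour for 29 of the 45, against 24.8% of all genes. Fold changes of this list without that tumour were not computed. By edgeR 0 were called, with 1 higher and 1 lower at an unadjusted p under 0.05. In 2, Adar and Rnf213, all LSN tumours were above both vehicle tumours, and in 2, Epsti1 and Ifitm1, all were below. Both counts are smaller shares of the 45 than the 8.48% and 10.4% of all genes that separated upward and downward. The higher one was Rnf213, a large ubiquitin ligase on chromosome 11, at 43.3 and 54.2 CPM with vehicle and 100.3, 143.4 and 103.0 CPM with LSN. Its log2 fold change was 1.24 (edgeR, unadjusted p = 0.00534, adjusted p = 0.9996). The lower one was Ifitm1, a membrane protein that blocks viral entry, at 18.8 and 8.65 CPM with vehicle and 4.75, 0.536 and 2.33 CPM with LSN. Ifitm1 was lowest in the tumour where most members were highest. Lgals3bp, the most abundant gene of that list by CPM, was at 76.4 and 109.2 CPM with vehicle and at 120.6, 258.5 and 60.4 CPM with LSN. Trafd1, the next by CPM, was between 83.1 and 118.5 CPM and was highest in LSN replicate 1.

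Total counts were 17439049 to 19766604 per tumour. Neuroendocrine markers, which check the tumour label, were present in all tumours, with a sum over 12 genes of 2545 to 7376 CPM with vehicle and 5500 to 9077 CPM with LSN, highest in LSN replicate 2. Only Neurod1 was at 0 counts, in LSN replicate 3. It was at 37.3 and 11.1 CPM with vehicle and at 0.773, 0.429 and 0 CPM with LSN. Its log2 fold change was -5.90 (edgeR, adjusted p = 0.9996, and DESeq2, adjusted p = 0.00065). Over the 12 neuroendocrine markers 7 log2 fold changes were above 0 and 5 below. Markers of immune cells differed in how they stood in LSN replicate 2. The 12 T and NK cell markers summed to 10.4 to 28.8 CPM with vehicle and 5.95 to 25.1 CPM with LSN, and LSN replicate 2 was lowest, with Ncr1, Prf1 and Gzmb at 0 counts. The 12 macrophage and monocyte markers summed to 1048 to 4417 CPM with vehicle and 846 to 1815 CPM with LSN, mostly from Lyz2 and Chil3. That sum was lowest in LSN replicate 2, but 6 of the 12 were lowest in vehicle replicate 1 and 5 in LSN replicate 2, and Cd68 was highest in LSN replicate 2, at 66.9 CPM. Siglech, a marker of plasmacytoid dendritic cells, the cells known for making much interferon, had 0 to 7 counts in every tumour.

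The 6 plasmacytoid dendritic cell markers together ranged from 268 to 466 CPM with vehicle and 141 to 395 CPM with LSN, most of it from Tcf4, which is not limited to these cells. In LSN replicate 2 Klk1 of that list was at 12.1 CPM, and at 0.0558 to 13.2 CPM in the others. Neutrophil markers, 8 genes, summed to 26.6 to 56.5 CPM with vehicle and 4.98 to 16.8 CPM with LSN, with Ly6g at 0 in all tumours. Much of the vehicle sums came from Hdc, at 20.2 and 27.4 CPM with vehicle and 4.86, 1.34 and 1.96 CPM with LSN. Of the 7 neutrophil markers tested 3 were lower in every LSN tumour and 4 overlapped between the groups. The 7 B and plasma cell markers summed to 98.0 to 270.2 CPM with vehicle and 35.6 to 152.1 CPM with LSN. Lung epithelium markers, 9 genes, summed to 6371 to 8169 CPM with vehicle and 346 to 1799 CPM with LSN, with the lowest sum in LSN replicate 2. The sums of the 7 endothelial markers were 429 to 622 CPM with vehicle and 138 to 644 CPM with LSN, with much of the sum from Vwf in 3 tumours. The other 6 of 7 were lower in every LSN tumour, as were 7 of the 9 lung epithelium markers, against 10.4% of all genes. Median log2 fold changes were -1.66 over the endothelial list and -2.14 over the lung epithelium list. Sums of the 8 fibroblast and smooth muscle markers were 727 to 1484 CPM with vehicle and 422 to 816 CPM with LSN. In pieces of tissue, fewer cells of a type and less RNA per cell cannot be told apart, and the part of these cells in the levels of the interferon stimulated genes was not tested.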

How the data were processed

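The authors deposited 1 table of raw read counts per gene for all 5 tumours. Per the labels' protocols, reads of a library that does not keep the strand were mapped to mm10 with STAR. The STAR version, counting program and gene annotation were not given in the sources used here. All 32 members had the same coordinates in GENCODE M21. The members and gene lists were chosen with earlier results of these data known.

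Counts were tested with edgeR 4.0.16 in R 4.3.3 (quasi-likelihood, robust, TMM, filterByExpr with min.count 10 and min.total.count 15), with Benjamini-Hochberg adjustment over all 17906 genes and 3 residual degrees of freedom. The scripts were tested on simulated data. Alternatives were DESeq2 1.42.0, limma-voom 3.58.1, other scalings and filters, and leaving out each tumour. Named genes were the 2 most abundant and the 2 with the smallest p per role or list, those with separate groups and a few fixed regulators. Other members were given as well, and Adar, Epsti1, Siglech, Vwf, Lyz2, Chil3, Cd68, Tcf4, Klk1, Neurod1, Ncr1, Prf1, Gzmb, Hdc and Ly6g were chosen after their values were seen. Lists are described by counts and medians.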

Additional observations from a re-analysis of the deposited data

How the results depend on the processing

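No paired analysis was possible because the labels give no pairing between tumours. The median log2 fold change of the 32 genes was 0.25 to 0.45 under the other tools, scalings, filters and subsets of members, and it ranged from -0.17 (without LSN replicate 2) to 0.69 when single tumours were left out. The number above 0 then ranged from 9 to 27, and the number higher in every LSN tumour from 5 to 11. Of all genes 24.7% and 20.3% were higher in every LSN tumour without vehicle replicate 1 and 2, where 8 and 11 of the 32 were, and 14.5 to 17.1% without an LSN tumour, where 5 to 8 were. With total counts in place of TMM 3 of the 32 were, against 5.62% of all genes. Lower in every LSN tumour were 4 and 1 of the 32 without vehicle replicates 1 and 2. Without LSN replicates 1, 2 and 3 the number lower was 1, 6 and 0. The share of all genes that were lower was not computed in these settings. DESeq2 called 100 genes, 0 of them members, where edgeR called 0. The number of members at an unadjusted p under 0.05 was 0 to 2. Leaving out 1 tumour changed the sign of 25 genes, of 14 when it was LSN replicate 2, 8 when it was vehicle replicate 2, 5 each for vehicle replicate 1 and LSN replicate 3, and 2 for LSN replicate 1. Their log2 fold changes then ranged from -0.35 to 0.38 for Cmpk2, from -0.85 to 0.15 for Bst2, from -0.10 to 0.65 for Stat2, from -0.71 to 1.31 for Samd9l, from -0.12 to 0.68 for Ifit2, from -0.21 to 1.02 for Irf9, from -0.28 to 1.34 for Isg15, from -0.13 to 1.07 for Parp14, from -0.036 to 0.65 for Usp18, from -0.81 to 0.61 for Ifi44, from -0.74 to 0.44 for Oasl2, from -0.16 to 0.49 for Rsad2, from -0.14 to 0.081 for Herc6, from -1.18 to 0.69 for Trim30a, from -0.52 to 1.31 for Ifit1, from -0.69 to 1.61 for Oas1a, from -1.77 to 0.57 for Ifit3, from -0.59 to 1.26 for Rtp4, from -1.22 to 1.93 for Oas2, from -0.52 to 1.47 for Ifi27l2a, from -0.35 to 0.75 for Xaf1, from -0.11 to 2.11 for Oasl1, from -1.09 to 0.90 for Ifit3b, from -0.40 to 1.22 for Mx2 and from -1.03 to 0.061 for Mx1. Trim25, Eif2ak2, Dtx3l, Parp9, Ifi35, Oas3 and Dhx58 kept their sign in every setting. Among 224 values from other settings 3 changed sign: Oasl2 was 0.0094 with DESeq2 and 0.0036 with RLE scaling, and Oas2 was -0.12 with limma-voom. The cause was not tested.

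With 2 vehicle and 3 LSN tumours most directions turned without some tumour, and low genes such as Mx1 and Ifit3b rest on few reads.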
